A study of Mus musculus with 24 samples.

Results

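The integrated stress response was followed here through 9 genes, Atf4, Ddit3, Trib3, Ppp1r15a, Chac1, Asns, Atf5, Sesn2 and Nupr1. They were taken by name, as the probes whose gene name in the array design is one of these symbols. This gave 10 probes, 2 for Atf4 and 1 for each other gene, among 55626 probes under 34779 gene names, of which 22968 genes had a probe kept for testing. All 10 probes were well above background on 24 of 24 arrays.

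Pancreatic islets were measured in 24 male mice, 1 single-colour array per mouse, in 6 groups of 4 formed by 2 inbred strains and 3 diets. The strains were C57BL6/J (BL6) and C57BLKs/J (BLKS), both without a transgene or other allele named in the labels, and all mice were 8 weeks old at the start. Fat supplied 18% of kcal in the chow and 42% in the high-fat diet (HFD), and the third diet was HFD with 140 mg of pioglitazone, a PPAR-gamma agonist, per kg (HFD and Pio). The stated time on the diet is 12 weeks in the labels of the samples but 16 weeks in the text on the design, which could not be reconciled. The islets were freed from the pancreas with collagenase and protease, and chow without drug was the control diet that both strains received.

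In the integrated stress response, kinases that sense endoplasmic reticulum (ER) stress, amino acid shortage, viral RNA or lack of heme phosphorylate the translation factor eIF2. General translation then slows, while the mRNA of the transcription factor Atf4 is translated more, and Atf4 switches on genes for amino acid supply, redox balance, feedback and, when stress lasts, cell death. Beta cells make large amounts of insulin in the ER and are known to depend on this control. The arrays measured mRNA, and neither eIF2 phosphorylation nor translation was measured.

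Promoter sequence from RefSeq (GRCm38.p6, 250 bases before to 50 after each annotated start) matched 9 of the 9 genes by symbol, with 10 windows because Atf5 has 2 starts. The windows were searched on both strands for 3 motifs, whose matches do not overlap here: TGATGNAA, the core of the C/EBP-ATF response element that Atf4 binds with a C/EBP partner, its variant TGACGNAA, and TGACGTCA, the cyclic AMP response element. TGATGNAA was present for 4 genes, Trib3, Chac1, Asns and Nupr1, and in 3.97% of all 32851 windows of the same length. TGACGNAA was present for Chac1 and in 1.59% of all windows, and TGACGTCA for Ppp1r15a and in 1.79%. The windows of Atf4, Ddit3, Atf5 and Sesn2 held none of these letters, which says only that they are not in these windows. The stretches around the matches are given below, since the genes that carry them include those with the larger and the smaller strain differences. Capitals mark the matches, which for Trib3 and Nupr1 and for TGATGNAA in Chac1 lie on the opposite strand.
Ppp1r15a (chr7:45526269-45526328, minus strand, bases -60 to -1 from the start): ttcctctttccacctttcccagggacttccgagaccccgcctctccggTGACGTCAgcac
Trib3 (chr2:152344028-152344057, minus strand, bases 4 to 33): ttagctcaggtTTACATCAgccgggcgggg
Chac1 (chr2:119350992-119351061, plus strand, bases -250 to -181): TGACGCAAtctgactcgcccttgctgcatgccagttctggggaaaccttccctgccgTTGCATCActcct
Asns (chr6:7693210-7693269, minus strand, bases -60 to -1): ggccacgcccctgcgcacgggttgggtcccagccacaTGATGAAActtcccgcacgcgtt
Nupr1 (chr7:126625551-126625610, minus strand, bases -140 to -81): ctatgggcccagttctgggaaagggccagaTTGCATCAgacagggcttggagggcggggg

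The probes themselves are placed by the files on mm9, and exon annotation on that build was not used here. The Ddit3 probe is shown because it is the only 1 of the 10 whose placement, chr10:126732518-126732821 on the plus strand, is much longer than its 60 bases, spanning 304 bases.
Ddit3 probe: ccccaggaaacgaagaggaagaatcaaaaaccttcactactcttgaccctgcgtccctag
The Atf4 probe used for the gene lies at chr15:80087902-80087961, and the other at chr15:80086639-80086698.

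Levels below are log2 processed intensities relative to the 75th percentile of the same array, and differences are log2 differences between groups with their standard error (SE) from a limma fit to all 24 arrays. A gene is called when its p-value, adjusted by the Benjamini-Hochberg method over 22968 genes, is under 0.05. That percentile ranged from 217.9 to 403.3 intensity units between arrays. The islet hormone genes Ins1, Ins2, Iapp, Gcg, Sst and Ppy and the beta-cell factor Pdx1 were well above background on 24 of 24 arrays. Lymphocyte marker means were uneven, from -3.77 to 2.49 in BL6 and from -3.73 to 1.32 in BLKS, and were above -2 on 8 arrays. The arrays lay on 4 slides: slide 1 held BL6 chow and HFD, slide 3 held BLKS HFD and HFD and Pio, and slides 2 and 4 held BL6 HFD and Pio and BLKS chow. Per the file headers, slide 4 was scanned on a different date from the other slides. The labels do not say whether mice shared a cage or litter.

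The first comparison asked how the strains differ. Averaged over the 3 diets, 8 of the 9 genes were higher in BLKS islets and Atf5 was lower, by log2 differences from -0.22 to 3.41 with a median of 0.97, against a median of -0.05 over all genes. So many genes differed between the strains that 64.7% of all genes tested were called in this comparison, 30.1% as higher in BLKS, and 9 of 9 has to be read against that. The sizes were less common: 15% of all genes differed by more than 1 on the log2 scale, and Ppp1r15a, Trib3, Ddit3 and Chac1 did. The 12 arrays of each strain did not overlap for 5 genes, Ppp1r15a, Trib3, Ddit3, Chac1 and Atf4, against 19.4% of all genes.

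Among the transcription factors, Atf4, which drives the response, stood at 7.04 (lowest), 7.69 (median) and 8.08 (highest) on the 12 BL6 arrays and at 8.32, 8.67 and 8.88 on the 12 BLKS arrays. Every BLKS mouse was above every BL6 mouse, and the difference was 0.97 ± 0.09 (SE), 1.96-fold (limma, adjusted p = 9.5e-09). The other Atf4 probe gave levels of 2.87 ± 0.19, 2.91 ± 0.22 and 2.34 ± 0.19 (SD, n = 4) in BL6 on chow, HFD and HFD and Pio, and of 4.08 ± 0.14, 3.95 ± 0.12 and 3.86 ± 0.20 in BLKS. By this probe the strain difference was 1.26 ± 0.07 (limma over all probes kept, adjusted p = 4.8e-12), so the 2 probes had the same sign and differed in size.

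Ddit3 encodes Chop, the factor that Atf4 induces in lasting stress and that promotes cell death. It stood at 1.00, 1.59 and 1.94 in BL6 and at 3.33, 3.69 and 4.13 in BLKS, with a clear gap between the strains. The difference was 2.12 ± 0.09, 4.35-fold (limma, adjusted p = 7.2e-14). Atf5, a relative of Atf4 whose translation is controlled in the same way, went the other way: 6.76, 7.11 and 7.46 in BL6 and 6.57, 6.94 and 7.12 in BLKS. The strains overlapped, and the difference of -0.22 ± 0.07 passed (limma, adjusted p = 0.015) over the 3 diets but on none of them alone. In log2 of the authors' value table it was -0.16 and did not pass (adjusted p = 0.11).

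The feedback genes held the largest difference of the 9. Ppp1r15a, also called Gadd34, is the stress-induced subunit that directs a phosphatase to eIF2 and so restores translation. It stood at 2.83, 3.22 and 3.58 in BL6 and at 6.34, 6.56 and 6.87 in BLKS, so the lowest BLKS array was well above the highest BL6 array. The difference was 3.41 ± 0.06, 10.6-fold (limma, adjusted p = 9e-20), and it ranked 127 from the highest of the 22968 genes. Trib3, a pseudokinase that restrains Atf4 and Chop, stood at 1.92, 2.58 and 2.83 in BL6 and at 4.62, 5.03 and 5.36 in BLKS. The strains did not overlap, and the difference was 2.55 ± 0.11, 5.86-fold (limma, adjusted p = 2.1e-14).

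The metabolic and protective targets differed less. Chac1, which breaks down glutathione, stood at 3.50, 4.25 and 4.69 in BL6 and at 5.06, 5.48 and 5.96 in BLKS, without overlap, a difference of 1.23 ± 0.11 (2.34-fold, limma adjusted p = 7.8e-09). Nupr1, a small stress-induced chromatin protein, stood at 5.05, 5.72 and 6.37 in BL6 and at 6.09, 6.59 and 6.97 in BLKS. Its strains overlapped through 1 BL6 mouse on HFD and Pio at 6.37, and the difference was 0.91 ± 0.13 (limma, adjusted p = 5e-06). Sesn2, which restrains the growth kinase mTORC1 when leucine is short, stood at 2.62, 2.99 and 3.19 in BL6 and at 3.17, 3.58 and 3.87 in BLKS. The strains overlapped slightly, and the difference was 0.58 ± 0.08 (limma, adjusted p = 4.7e-06). Asns, the enzyme that makes asparagine and a textbook Atf4 target, stood at 5.76, 6.02 and 6.59 in BL6 and at 6.06, 6.43 and 6.80 in BLKS. The overlap was wide, and the difference was 0.32 ± 0.09 (limma, adjusted p = 0.0056).

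**Figure D1:**
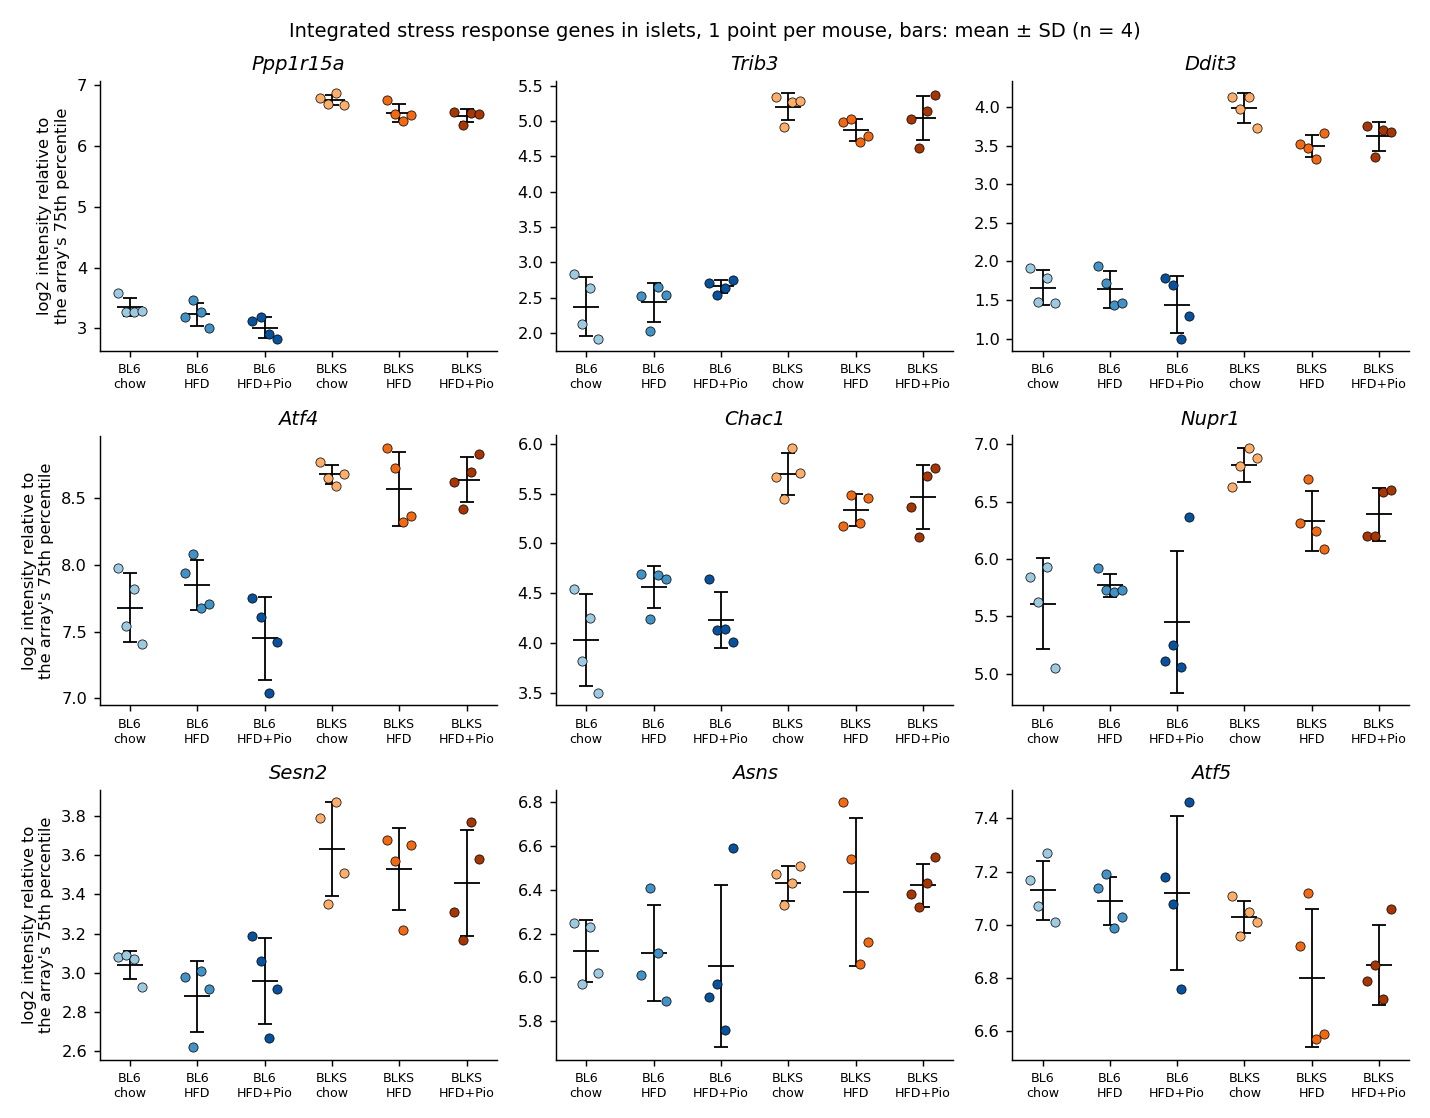
Log2 intensity relative to the 75th percentile of the array (vertical axes, 1 scale per gene) for the 9 genes in the 6 groups (horizontal axes), 1 point per mouse, with bars for the mean and SD (n = 4). The 12 BLKS points lie above the 12 BL6 points for Ppp1r15a, Trib3, Ddit3, Atf4 and Chac1, while the strains overlap for Nupr1, Sesn2, Asns and Atf5.

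Taken diet by diet, the strain comparison called 7 of 9 genes as higher in BLKS on chow (41.6% of all genes were called, 20.6% as higher), 7 of 9 on HFD (49.9%, 23.3% as higher) and 7 of 9 on HFD and Pio (45.8%, 23% as higher). Of the genes called on HFD and Pio, 50.2% were higher in BLKS, and 61.8% in the scaling of the authors' value table. The members called were Atf4, Ddit3, Trib3, Ppp1r15a, Chac1, Sesn2 and Nupr1 each time. The 4 arrays of a group did not overlap those of the other strain for 8, 7 and 5 of the 9 genes on the 3 diets, against 46.8%, 39.9% and 38.7% of all genes. The 3 comparisons use different mice, and each gene's own values follow.

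Ppp1r15a was 3.35 ± 0.15, 3.23 ± 0.19 and 3.01 ± 0.17 (SD, n = 4) in BL6 on chow, HFD and HFD and Pio, and 6.76 ± 0.09, 6.55 ± 0.15 and 6.50 ± 0.11 in BLKS. Its strain difference was 3.41, 3.32 and 3.48 in that order, each ± 0.11, and so nearly the same on the 3 diets. Trib3 was 2.37 ± 0.42, 2.43 ± 0.28 and 2.66 ± 0.09 in BL6, and 5.20 ± 0.19, 4.87 ± 0.16 and 5.04 ± 0.31 in BLKS. Its differences were 2.82, 2.45 and 2.38, each ± 0.18, with overlapping 95% intervals.

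Ddit3 was 1.66 ± 0.23, 1.64 ± 0.24 and 1.44 ± 0.37 in BL6, and 3.99 ± 0.19, 3.50 ± 0.14 and 3.62 ± 0.19 in BLKS. Its differences were 2.33, 1.86 and 2.18, each ± 0.16. For Atf4 the levels were 7.68 ± 0.26, 7.85 ± 0.19 and 7.45 ± 0.31 in BL6, and 8.68 ± 0.07, 8.57 ± 0.28 and 8.64 ± 0.17 in BLKS. Its differences were 0.99, 0.72 and 1.19, each ± 0.16. In every one of these groups of BLKS mice the mean was above every BL6 mean of the same gene.

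Chac1 was 4.03 ± 0.46, 4.56 ± 0.21 and 4.23 ± 0.28 in BL6, and 5.70 ± 0.21, 5.34 ± 0.16 and 5.47 ± 0.32 in BLKS. Its differences of 1.67, 0.78 and 1.24, each ± 0.20, were all called, the one on HFD being the smallest (limma, adjusted p = 0.0028). Nupr1 was 5.61 ± 0.40, 5.77 ± 0.10 and 5.45 ± 0.62 in BL6, and 6.82 ± 0.15, 6.33 ± 0.26 and 6.39 ± 0.23 in BLKS, with differences of 1.21, 0.56 and 0.95, each ± 0.23. On HFD its adjusted p was 0.0496, which went above the threshold when any of 7 of the 8 mice was left out (0.042 to 0.15 over the 8 cases). It was also above it with 4 other settings that kept all arrays (0.055 with the acinar marker mean as a covariate, 0.069 with mouse number as a block, 0.071 without the filter on dim probes and 0.85 with the immediate early gene mean as a covariate). Without the 8 arrays of high lymphocyte markers Nupr1 was called neither on HFD (0.58, adjusted p = 0.13) nor on HFD and Pio (0.72, adjusted p = 0.095), and the counts of members called were 7, 6 and 7 on the 3 diets. The last of these includes Atf5, which was lower in BLKS (-0.45, adjusted p = 0.033), in place of Nupr1. Such counts have to be read against the many genes called in these strain comparisons. Over the alternatives other than the immediate early gene covariate, that number was 7613 to 11035 on chow, 9318 to 12348 on HFD and 8598 to 11262 on HFD and Pio.

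Sesn2 differed by 0.59, 0.65 and 0.50, each ± 0.15. Asns differed by 0.31, 0.29 and 0.36, each ± 0.16, and was not called on any single diet (limma, adjusted p = 0.14, 0.16 and 0.077). On chow it passed in 2 of 13 other settings, with the compared groups fitted alone (adjusted p = 0.018) and with the lymphocyte marker mean as a covariate (0.043). Without BL6 mouse 4 on HFD and Pio, whose Asns level of 6.59 was the highest of its group, the difference on that diet was 0.54 (adjusted p = 0.0054). Atf5 differed by -0.10, -0.29 and -0.27, each ± 0.13 (adjusted p = 0.59, 0.072 and 0.098). It passed on HFD without BLKS mouse 2 (-0.39, adjusted p = 0.016) and on HFD and Pio without BL6 mouse 3 (-0.39, adjusted p = 0.014). It also passed in 2 of 13 other settings on HFD (lowest adjusted p = 0.0056, with normexp and quantile normalization) and in 3 of 13 on HFD and Pio (lowest adjusted p = 0.018, with the lymphocyte marker mean as a covariate).

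**Figure D2:**
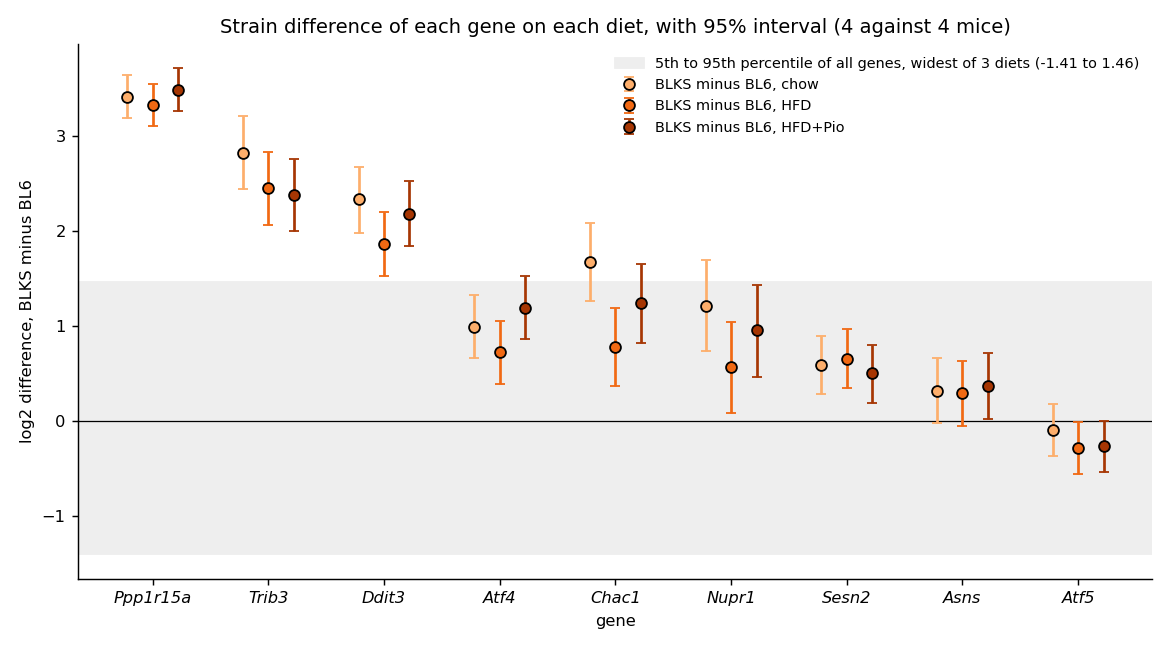
Log2 difference between BLKS and BL6 (vertical axis) for each gene (horizontal axis) on chow, HFD and HFD and Pio, with 95% intervals from the limma fit, and the band that holds the middle of all genes (5th to 95th percentile, -1.41 to 1.46 at its widest). Ppp1r15a, Trib3 and Ddit3 lie above the band on every diet, and Asns and Atf5 lie near 0.

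Other genes moved with strain in the same samples. Immediate early genes, which cells switch on within minutes of a stimulus or of handling, were higher in BLKS for 21 of 21 measured members of a list of 23, with a median difference of 3.41. Their mean over the list ranged from -1.01 to -0.08 on BL6 arrays and from 2.59 to 3.14 on BLKS arrays, without overlap. Ductal-cell markers were higher in BLKS for 8 of 10 genes (median 2.04), with array means from -1.03 to 0.29 in BL6 and from 1.09 to 1.78 in BLKS. Macrophage markers were lower in BLKS for 13 of 16 genes and higher for 1, with array means from 0.53 to 2.36 in BL6 and from 0.10 to 1.07 in BLKS. Acinar markers had 0 of 18 genes called, with array means from -1.02 to 6.32 in BL6 and from -3.34 to 6.60 in BLKS. Of 12 beta-cell and islet hormone markers, 4 were lower in BLKS and 0 higher (median -0.15). These marker counts have to be read against all genes, of which 34.6% were called lower and 30.1% higher in BLKS (median -0.05). In whole islets, fewer cells of a type and less RNA per cell cannot be told apart, and the part of these cell types in the strain differences was not tested.

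With the immediate early gene mean of each array added to the fit, the only member still called was Ppp1r15a, at 2.79 ± 0.53 over the 3 diets (limma, adjusted p = 0.022). Trib3 was then 2.11 ± 0.93, Ddit3 2.32 ± 0.84, Atf4 0.85 ± 0.81 and Chac1 0.64 ± 1.01 (adjusted p from 0.23 to 0.80), and Sesn2 was 1.49 ± 0.72. Over all genes the number called fell from 14852 to 108. This mean does not overlap between the strains, the SE of Ppp1r15a rose from 0.06 to 0.53, and strain and this mean cannot be told apart. Among mice of the same group, the 9 genes showed correlations from -0.29 to 0.28 with the immediate early gene mean, none past an adjusted p of 0.05.

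Within a diet, the strains never shared a slide. BLKS chow and BL6 HFD and Pio shared slides 2 and 4, and with slide as a block 7 of 9 genes were higher in BLKS there (43.5% of all genes were called). The differences were 3.75 ± 0.11 for Ppp1r15a, 2.55 ± 0.17 for Ddit3, 2.54 ± 0.19 for Trib3 and 1.47 ± 0.20 for Chac1. They were 1.37 ± 0.19 for Nupr1, 1.22 ± 0.16 for Atf4 and 0.67 ± 0.15 for Sesn2. Asns at 0.38 ± 0.15 (limma, adjusted p = 0.052) and Atf5 at -0.09 ± 0.12 did not pass. These 2 groups differ in diet and drug as well as strain, and the part of slide in the strain differences within a diet was not tested.

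The next comparisons asked whether a high-fat diet moved these genes in either strain. In BL6 islets 0 of 9 genes were called by limma (0.0435% of all genes were), and in BLKS islets 0 of 9 (0.0784%). At an unadjusted p under 0.05, the count was 1 in BL6 (Chac1; 1254 genes in all) and 2 in BLKS (Ddit3 and Nupr1; 2107 genes in all). In BLKS all 9 differences were below 0, from -0.49 to -0.04 with a median of -0.23, against -0.02 over all genes, and in BL6 4 were above 0 and 5 below, with a median of -0.01. Other lists leaned the same way in BLKS: 2 of 24 ER chaperones and Atf6 or Xbp1 targets, 2 of 12 beta-cell and hormone markers and 0 of 10 endothelial markers were above 0. Of the genes for eIF2, its kinases, eIF2B and its phosphatase 10 of 16 were above 0, and of the tRNA synthetase list 8 of 13.

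Chac1 in BL6 was 4.54, 3.82, 4.25 and 3.50 in the 4 chow mice and 4.69, 4.24, 4.68 and 4.64 in the 4 HFD mice. The groups overlapped, with 2 chow mice below the others, and the difference was 0.53 ± 0.20 (95% interval 0.12 to 0.95, limma adjusted p = 0.68). In BLKS it was 5.67, 5.45, 5.96 and 5.71 on chow and 5.18, 5.49, 5.21 and 5.46 on HFD, a difference of -0.36 ± 0.20 (-0.77 to 0.05, adjusted p = 0.62). The response of Chac1 thus had opposite signs in the strains, and the test of that difference gave -0.89 ± 0.28 (95% interval -1.48 to -0.31, unadjusted p = 0.0046, limma adjusted p = 0.34). It did not pass over all genes, where 0 were called (1938 at an unadjusted p under 0.05).

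Ddit3 in BLKS was 4.13, 3.97, 4.13 and 3.73 on chow and 3.52, 3.47, 3.33 and 3.67 on HFD. All 4 HFD mice were below all 4 chow mice, which was so, in 1 direction or the other, for 5.8% of all genes and for 1 of these 9 (0 of 9 and 4.86% in BL6). The difference was -0.49 ± 0.16 (95% interval -0.84 to -0.15, limma adjusted p = 0.29) and did not pass. In BL6 it was -0.03 ± 0.16 (-0.37 to 0.32), and the difference between the strains' responses was -0.47 ± 0.23 (adjusted p = 0.62). Nupr1 in BLKS was 6.63, 6.81, 6.97 and 6.88 on chow and 6.31, 6.70, 6.24 and 6.09 on HFD, with 1 HFD mouse inside the chow range. Its difference was -0.49 ± 0.23 (adjusted p = 0.54).

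The other 95% intervals bound what 4 mice a group could show. For Ppp1r15a they were -0.34 to 0.11 in BL6 and -0.43 to 0.02 in BLKS, far below its strain difference. For Atf4 they were -0.16 to 0.50 and -0.43 to 0.23, and for Trib3 -0.33 to 0.44 and -0.71 to 0.06. BLKS chow and HFD lie on different slides, and acinar marker means were uneven between the groups, at -3.34, 5.47, 1.88 and 4.25 on chow and 4.63, 3.73, 6.60 and 3.69 on HFD. They overlapped, and 0 of 18 acinar genes were called. All 18 were nonetheless higher on HFD in BLKS, by 0.69 to 3.93 with a median of 2.77. In BL6 all 18 were higher as well (median 1.95). With the acinar mean as a covariate, 0 of 9 genes were called, as without it. That count therefore cannot show the part of acinar tissue in these differences, which was not tested.

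**Figure D3:**
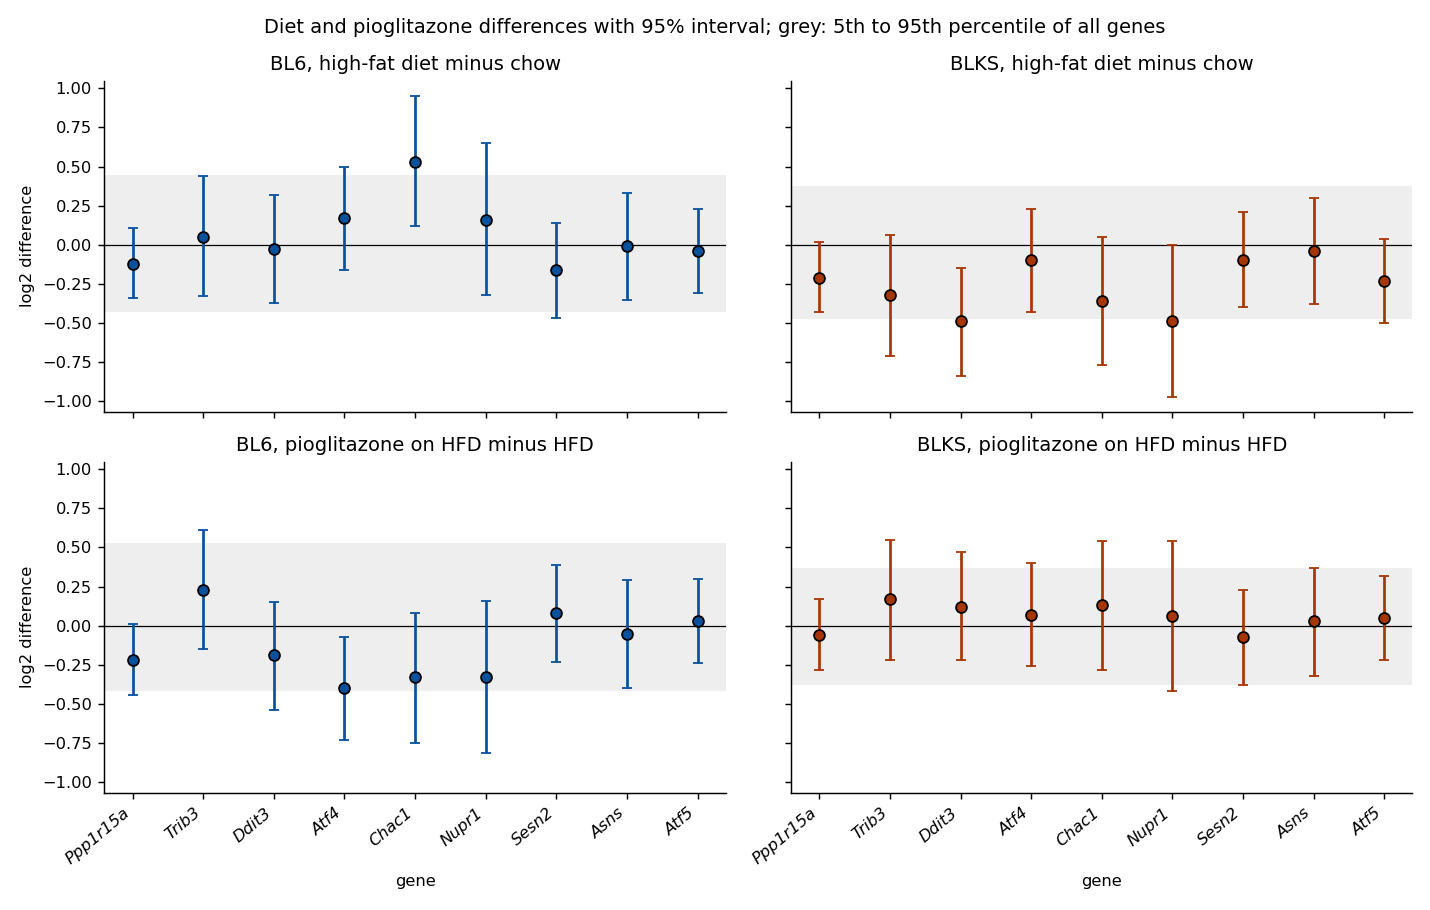
Log2 difference (vertical axes) of each gene (horizontal axes) for HFD against chow and for pioglitazone on HFD against HFD, in BL6 and in BLKS, with 95% intervals from the limma fit and the 5th to 95th percentile of all genes as a band. All 9 points are below 0 for BLKS on HFD, from -0.49 to -0.04, and no gene was called in any of the 4 panels.

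The last comparisons asked whether pioglitazone added to the HFD moved these genes. In BL6 islets 0 of 9 genes were called by limma (0.192% of all genes were), with 1 gene at an unadjusted p under 0.05, and in BLKS islets 0 of 9 (0.00435%), with 0 at that level. The arrays of the 2 groups were without overlap for 0 of 9 genes in either strain (3.27% of all genes in BL6 and 2.86% in BLKS). Over all genes, 2380 and 955 had an unadjusted p under 0.05. Atf4 in BL6 was 7.94, 8.08, 7.68 and 7.71 on HFD and 7.75, 7.61, 7.04 and 7.42 on HFD and Pio. The groups overlapped only through the highest drug-fed mouse, and the difference was -0.40 ± 0.16 (95% interval -0.73 to -0.07, adjusted p = 0.38). By the other Atf4 probe, the levels were 2.91, 3.21, 2.77 and 2.74 on HFD and 2.36, 2.59, 2.16 and 2.25 on HFD and Pio, without overlap, and the difference was -0.57 ± 0.13 (adjusted p = 0.093 over all probes kept). These groups lay on different slides. In BLKS the difference in Atf4 was 0.07 ± 0.16 by the first probe and -0.09 ± 0.13 by the other, and neither passed.

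Ppp1r15a differed by -0.22 ± 0.11 with the drug in BL6 (adjusted p = 0.50) and by -0.06 ± 0.11 in BLKS. Trib3 differed by 0.23 ± 0.18 and 0.17 ± 0.18, and Ddit3 by -0.19 ± 0.16 and 0.12 ± 0.16. Nupr1 in BL6 was 5.92, 5.73, 5.71 and 5.73 on HFD and 5.11, 5.25, 5.06 and 6.37 on HFD and Pio, so 3 of the 4 drug-fed mice were below every HFD mouse and 1 above them. Its difference was -0.33 ± 0.23 (adjusted p = 0.65). The mouse at 6.37 was the only array of its group on slide 4, which had another scan date than the other slides. For the difference between the strains' responses to the drug, 0 of 9 genes were called (0.00871% of all genes), with 0 at an unadjusted p under 0.05 (1713 genes in all).

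The wider pathway was read from lists grouped by function. The lists were chosen with earlier results of these data known, so their counts describe the data and are no independent test. Of 16 genes for eIF2 kinases, eIF2 and eIF2B subunits and the eIF2 phosphatase, 9 were higher and 3 lower in BLKS over the 3 diets, with a median of 0.22. Ppp1r15b, the constitutive counterpart of Ppp1r15a, was 1.17 ± 0.07 higher, and Dnajc3, an ER co-chaperone that inhibits the kinase PERK, was lower, with a difference of -1.04 ± 0.07. Eif2ak3, which encodes PERK, was 0.63 ± 0.08 higher, and Eif2ak4, the amino acid sensor Gcn2, differed by -0.12 ± 0.08 and did not pass (limma, adjusted p = 0.21). Of the other eIF2 kinases in the list, Eif2ak2 was lower in BLKS, with a difference of -0.67. Its arrays ranged from -1.65 to -1.05 in BLKS and from -0.84 to -0.23 in BL6. Eif2ak1 differed by 0.22. The kinases were named for their role after their values were seen, outside the naming rule.

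Of 9 bZIP partners of Atf4, which pair with it on DNA, 6 were higher and 2 lower (median 1.35). Atf3, itself induced by Atf4 and by handling, differed by 7.93 ± 0.30 and its probe was above background on 10 of the 12 arrays of BL6 and all 12 of BLKS. Cebpb was 2.94 ± 0.08 higher and Cebpg, the usual partner of Atf4, 0.75 ± 0.04 higher. Of 18 other targets of Atf4 and Chop, 15 were higher and 1 lower (median 0.97, the same as for the 9 genes). Among them Tnfrsf12a was 3.81 ± 0.10 higher, the death receptor gene Tnfrsf10b 1.97 ± 0.07, the cell cycle inhibitor Cdkn1a 2.26 ± 0.10, the autophagy receptor Sqstm1 1.58 ± 0.08 and the ER degradation gene Herpud1 1.37 ± 0.06. Gdf15, a secreted stress hormone, was 2.83 higher in BLKS over the 3 diets, and 3.05 ± 0.30 higher in BLKS than in BL6 on HFD.

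The amino acid arm, to which Asns belongs, differed less in size. Of 13 genes for amino acid and one-carbon synthesis, 10 were higher and 1 lower in BLKS with a median of 0.31, close to the 0.32 of Asns. Of 10 amino acid transporters, 6 were higher and 0 lower (median 0.65), with Slc7a1, a transporter of cationic amino acids, 1.23 ± 0.05 higher. Of 13 cytosolic tRNA synthetases and tRNA export genes, 10 were higher and 1 lower (median 0.31). Of 24 ER chaperones and targets of Atf6 or Xbp1, the other arms of the unfolded protein response, 14 were higher and 1 lower (median 0.36). Hspa5, the ER chaperone BiP, was 0.96 ± 0.07 higher in BLKS (chosen after its values were seen). These counts stand beside 30.1% higher and 34.6% lower among all genes.

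Few genes of these lists passed for diet or drug. Few of all genes did either: 0.0435% in BL6 and 0.0784% in BLKS for HFD against chow, and 0.192% and 0.00435% for pioglitazone. Over the 7 lists named above, HFD against chow had 0 genes called in either strain, and pioglitazone had 0 in BLKS and 1 in BL6. That gene was Slc38a2, an amino acid transporter, which fell by 0.55 on the log2 scale (SE 0.10, limma adjusted p = 0.02) in BL6 on HFD and Pio against HFD.

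**Figure D4:**
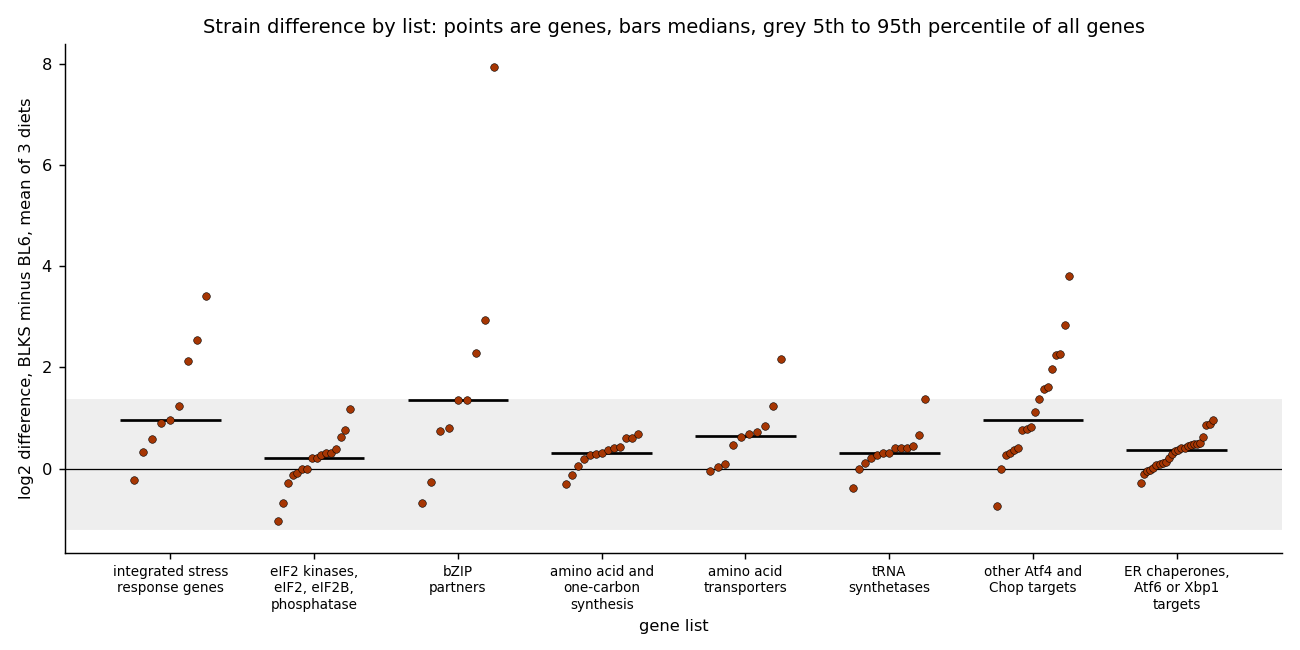
Log2 difference between BLKS and BL6 averaged over the 3 diets (vertical axis) for every measured gene of the 9 integrated stress response genes and of 7 lists by function (horizontal axis), with a bar for each median and the 5th to 95th percentile of all genes as a band (-1.20 to 1.35). The medians are 0.97 for the 9 genes, 1.35 for bZIP partners and 0.31 for tRNA synthetases, and the point at 7.93 is Atf3.

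Correlation among mice of the same group was also described. After each group's mean was subtracted, 34 of 36 pairs had a positive Pearson r over the 24 arrays, with a median of 0.36, and 12 pairs passed a permutation test within groups adjusted over the 36 pairs (15 by Spearman's rho). Positive correlation was common in these data: over all pairs of the 5068 genes whose mean level was at least that of the lowest of the 9, 71.1% were positive and the median r was 0.25 (56.4% and 0.05 over all 22968 genes). The lowest r among the 12 pairs was 0.49, which 38.9% of the 36 pairs and 26.9% of the pairs of those 5068 genes reached. Nothing particular to the 9 genes is read from these counts. Trib3 and Chac1 had r = 0.83 (rho = 0.72, permutation p = 0.00015 and 0.0027, adjusted p = 0.0054 and 0.022), 0.75 without the 2 farthest arrays; by strain it was 0.86 (BL6) and 0.78 (BLKS). Asns and Atf5 had r = 0.79 (rho = 0.75, permutation p = 0.0023 and 0.0019, adjusted p = 0.014 and 0.022), 0.75 without the 2 farthest arrays; by strain it was 0.82 (BL6) and 0.75 (BLKS).

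Atf4 and Ddit3 had r = 0.72 (rho = 0.63, permutation p = 0.0011 and 0.0054, adjusted p = 0.011 and 0.022), 0.69 without the 2 farthest arrays, but 0.93 within BL6 and 0.28 within BLKS. Atf4 and Ppp1r15a had r = 0.69 (rho = 0.69, permutation p = 0.0019 and 0.002, adjusted p = 0.014 and 0.022), 0.66 without the 2 farthest arrays, and similar values within BL6 (0.68) and BLKS (0.70). Among the 4 genes with a TGATGNAA match, r was 0.83 for Trib3 and Chac1, 0.66 for Asns and Nupr1 and 0.49 for Trib3 and Nupr1. These pairs passed the permutation test (adjusted p = 0.0054, 0.047 and 0.023). The other pairs of these genes did not: Trib3 and Asns (0.31), Chac1 and Nupr1 (0.28) and Chac1 and Asns (-0.01). Arrays share the scaling to their 75th percentile and the makeup of the islet sample, and none of 72 correlations between a gene and a marker mean passed after adjustment. Macrophage marker means correlated with the 9 genes from -0.61 to -0.06, and beta-cell and hormone marker means from 0.02 to 0.68.

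**Figure D5:**
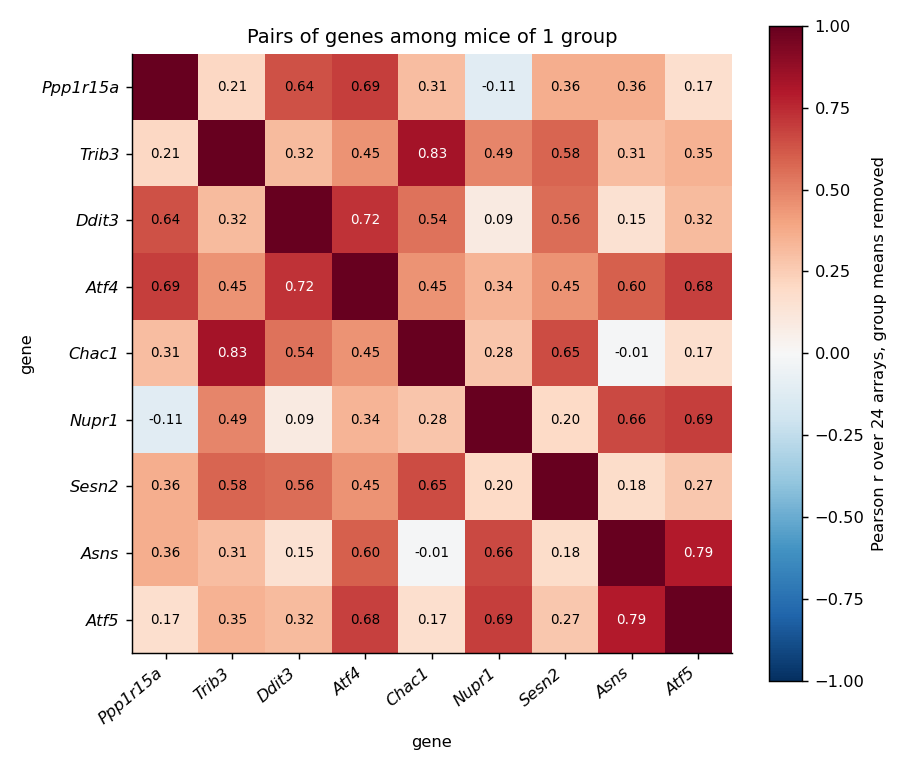
Pearson r over 24 arrays for each pair of the 9 genes (both axes) after the group means were subtracted, from -1 (blue) to 1 (red). The highest values are 0.83 for Trib3 with Chac1 and 0.79 for Asns with Atf5, and the lowest is -0.11 for Ppp1r15a with Nupr1.

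Across 14051 genes with an ordinary symbol, the most like pattern by the same r was given by Chac1 (0.83), Slc7a1 (0.79) and Znrd1 (0.78) for Trib3, and by Trib3 (0.83), Taco1 (0.81) and Mybph (0.73) for Chac1. For Atf4 it was Dap3 (0.92), Zcchc17 (0.90) and Mrpl41 (0.90), and for Ddit3 Sept10 (0.83), Gpx4 (0.79) and Th (0.79). For Ppp1r15a it was Zfp72 (0.87), Ddx31 (0.85) and Bhlha15 (0.85). For Asns it was Cnih (0.92), Dolk (0.92) and Atp6v1d (0.91), and for Atf5 the genes given are Mcoln1 (0.91) and Sdf2 (0.90). For Sesn2 it was Rala (0.85), Thap4 (0.79) and Glp1r (0.79), and for Nupr1 Elovl7 (0.78), Eif4ebp1 (0.75) and Fam84b (0.75). These are the highest of many values and carry no test.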

How the data were processed

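Each array is 1 mouse. Per the file headers, the scanner images were read with Agilent Feature Extraction 10.7.3.1, and the deposited processed intensity is background-subtracted but not normalized between arrays. The deposited raw and background intensities served 1 alternative. The authors' value table holds a linear ratio, which the values show to be processed intensity over the array's median. Of 62976 spots, 59305 were not controls. Outlier spots were dropped (55 probes lost), spots of a probe were averaged, and log2 intensity was expressed relative to the array's 75th percentile. Probes well above background on at least 4 arrays were kept (32750), and the brightest kept probe stood for each of 22968 gene names. limma 3.58.1 (R 4.3.3) was fitted to all 24 arrays with 1 mean per group, with Benjamini-Hochberg adjustment at 0.05, and the fit was tested on simulated data. Correlations used 100000 permutations within groups (numpy 2.4.6, scipy 1.17.1).

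The members and the lists were chosen with earlier results of these data known. Named were all 9 members, at most 10 called genes of the pathway lists per contrast by smallest p, and the 3 genes most like each member, of which 1 is not reported here. Alternatives were normexp (offset 50) with quantile normalization, quantile alone, other filters, mean of probes, the value table, slide as a block, mouse number as a block, fits on the compared groups alone, marker means as covariates and each mouse left out. A comparison within slides and a fit without 8 arrays of high lymphocyte markers were added after seeing the data. The number of arrays limits the precision. The limma p-values weigh a difference between groups against the spread between mice within groups, estimated over all groups together. The main fit has no term for slide.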

Additional observations from a re-analysis of the deposited data

Results flagged for a closer look

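In groups of 4 mice, 5 of 54 combinations of gene and group held 1 mouse set apart from the other 3 by Dixon's criterion, and chance gives about 1 in 20. Nupr1 stood at 6.37 in BL6 mouse 4 on HFD and Pio, where the others lay between 5.06 and 5.25. Nupr1 also stood at 5.92 in BL6 mouse 1 on HFD, with the others between 5.71 and 5.73. Ppp1r15a was 3.58 in BL6 mouse 1 on chow, above 3.26 to 3.28 in the others. Chac1 was 4.24 in BL6 mouse 2 on HFD, below 4.64 to 4.69. Sesn2 was 2.93 in BL6 mouse 4 on chow, below 3.07 to 3.09. All 5 were BL6 mice.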

How the results depend on the processing

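In the strain comparisons, the count of members called was within 1.5 times its value in 96 of 100 recomputed cases. Those cases, and the cases for single genes below, include BLKS chow against BL6 HFD and Pio within slides. That contrast was set beside the comparison over the 3 diets although it uses other groups. In the other 144 cases, of diet, drug or their difference between strains, it was 0 as reported, where few genes of any kind were called. The 4 exceptions were with the immediate early gene mean as a covariate, where the count was 1 over the 3 diets, 1 on chow, 1 on HFD and 1 on HFD and Pio, while the genes called in all fell from 14852 to 108, from 9545 to 120, from 11466 to 105 and from 10520 to 94, and Atf5 reversed to 0.43, 0.54, 0.37 and 0.38 in that order. For single genes, 960 cases were on the same side of the threshold, 40 lost and 10 gained the call, and 4 reversed. With each mouse left out in turn, the count was 9 to 9 over the 3 diets, 7 to 7 on chow, 6 to 7 on HFD, 7 to 8 on HFD and Pio, and 0 to 0 for each comparison of diet, drug or their difference between strains. Of all 22968 genes, those fits called 14488 to 15270 over the 3 diets and 8512 to 8950 on chow. They called 10454 to 11100 on HFD and 9464 to 10791 on HFD and Pio. Same-numbered mice did not consistently deviate together (r from -0.64 to 0.48), so the numbers were not taken as pairs. With mouse number as a replicate block the counts were 9 over the 3 diets and 7 on chow, and Nupr1 on HFD alone lost its call (adjusted p = 0.069). Among the comparisons of diet, drug or strain within a diet, a fixed slide block could be fitted for BL6 HFD against chow and BLKS pioglitazone against HFD, with 0 members called in both. Slide as a random block had a correlation of -0.012. The comparison over the 3 diets already uses all groups, so restricting it to them gives the same fit. The number of all genes called was small and uneven for diet and drug. Over the alternatives other than the immediate early gene covariate it ran from 0 to 18 (10 as reported) for HFD in BL6, 0 to 63 (18) for HFD in BLKS, 0 to 63 (44) for pioglitazone in BL6 and 0 to 52 (1) in BLKS. For the strain differences in response it ran from 0 to 11 (0) for HFD and 0 to 22 (2) for pioglitazone, with 0 members called throughout. For the strain comparisons the number of all genes called was large. It ran from 12473 to 16315 (14852) over the 3 diets and from 7613 to 11035 (9545) on chow. On HFD it ran from 9318 to 12348 (11466), and on HFD and Pio from 8598 to 11262 (10520).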
